A study of Mus musculus with 15 samples.

Results

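The dual-specificity phosphatases and Sprouty proteins are inhibitors that end signalling by the mitogen-activated protein (MAP) kinases, and 10 of their genes were followed here in mouse hepatocytes that received a single isoform of the bile acid receptor FXR. The genes were Dusp1, Dusp4, Dusp5, Dusp6, Dusp7, Dusp10, Dusp16, Spry1, Spry2 and Spry4, taken by symbol from the 18820 genes with a measurement, with 1 probe set each. The family was chosen by the measured values of Dusp4, seen to be higher with FXRα3 than with GFP, so the comparison of FXRα3 with GFP is given as a description with no test for any gene. For the same reason Dusp4 has no p-value wherever FXRα3 or GFP arrays enter.

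MAP kinases (ERK, JNK and p38) are switched on when a threonine and a tyrosine in their activation loop are phosphorylated, and MAP kinase phosphatases remove both phosphates. Dusp1, Dusp4 and Dusp5 encode inducible nuclear phosphatases. Dusp6 and Dusp7 encode cytoplasmic phosphatases selective for ERK, and Dusp10 and Dusp16 act mainly on JNK and p38. Sprouty proteins act further upstream, between growth factor receptors and Ras-ERK. Several of these genes, Dusp6, Spry2 and Spry4 among them, are themselves switched on by ERK activity in many cell types and so form a negative feedback loop.

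The cells were primary hepatocytes of male C57BL/6J mice, whose age the labels do not state. Adenoviruses delivered human FXRα1, FXRα2, FXRα3 or FXRα4 together with GFP, which was made from a CMV promoter of its own, and the control adenovirus carried GFP and no receptor. The isoforms differ in 2 features. A short insert beside the DNA-binding domain is present in FXRα1 and FXRα3 and absent from FXRα2 and FXRα4, and the N-terminus is long in FXRα3 and FXRα4 and short in FXRα1 and FXRα2. Every group was therefore a transduced culture, the receptor was human and overexpressed, and no deletion of the mouse's own receptor is labelled. The maintenance medium held 0.1 µM dexamethasone, a glucocorticoid, and 1 nM insulin, both of which were withheld from all groups for 24 h, and RNA was taken 36 h after transduction. Each group had 3 arrays, and all values are the deposited ones on a log2 scale, so a difference of 1 is a doubling of signal.

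The medians of the 15 arrays lay between 4.92 and 5.01. The 14 measured hepatocyte markers, among them Alb, Ttr and Apoa1, averaged 11.04 with FXRα2, 10.98 with FXRα4, 10.87 with FXRα3, 10.78 with FXRα1 and 10.66 with GFP. The Kupffer cell, stellate cell and lymphocyte or neutrophil marker lists averaged at most 4.39 in any group, and the endothelial list at most 5.09. Within the Kupffer list Cd68, named after its values were seen, had group means from 8.67 with FXRα4 to 9.05 with FXRα2. Of 12 cholangiocyte markers 9 were measured, and their mean per array was 6.66 to 6.70 with FXRα1, 6.85 to 7.00 with FXRα2, 6.64 to 6.70 with FXRα3 and 6.90 to 7.06 with FXRα4, against 6.25 to 6.29 with GFP. Epcam among them averaged 9.97 with FXRα2 and 9.70 with FXRα4, against 5.02 with GFP, while Krt7 stayed between 4.51 and 4.88 on all arrays. Krt19 averaged 7.55 with FXRα2 and 8.44 with FXRα4, against 9.37 with GFP, and 10.70 with FXRα1. Without Epcam, left out after its values were seen, the list mean was 6.52 with FXRα2 and 6.64 with FXRα4, against 6.43 with GFP, and with FXRα1 it was 6.80. The part of those markers in the results was not tested, and in bulk RNA a change in the number of cells of a type cannot be told apart from a change in RNA per cell. Centring each array on its median moved the median of all genes by -0.105 for FXRα1 minus GFP, -0.221 for FXRα2 minus GFP, -0.212 for FXRα4 minus GFP, -0.116 for FXRα2 minus FXRα1 and -0.173 for FXRα4 minus FXRα3. Calls on the 10 genes that it ended are given with each gene. It also made calls of Dusp5, Dusp6, Dusp7 and Spry1 with FXRα1 against GFP and of Dusp6 with FXRα2 against GFP. Between isoforms it made calls of Dusp4 and Dusp5 with FXRα2 against FXRα1, Dusp5 and Dusp16 with FXRα4 against FXRα3 and Dusp7 with FXRα3 against FXRα1. After it, of 18820 genes 1005 rose and 2070 fell with FXRα1, 1889 rose and 11273 fell with FXRα2, and 1927 rose and 9860 fell with FXRα4, each against GFP.

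Dusp4 encodes a nuclear phosphatase of ERK and JNK, and its group means spanned 2.12, against 0.88 for Dusp6, the next widest. Dusp4 read 8.01, 7.85 and 8.13 with FXRα1, 7.67, 7.74 and 7.93 with FXRα2, 8.30, 8.35 and 8.50 with FXRα3 and 7.97, 7.99 and 8.21 with FXRα4, against 6.24, 6.28 and 6.26 with GFP. Each of the 12 isoform arrays lay above each GFP array. Relative to GFP the difference was 1.73 with FXRα1 (3.33-fold), 1.52 with FXRα2 (2.86-fold), 2.12 with FXRα3 (4.35-fold) and 1.79 with FXRα4 (3.46-fold), each with a standard error (SE) of 0.09. Ordered by difference from GFP, highest first, Dusp4 was number 12 of 18820 genes for FXRα1, 216 for FXRα2, 5 for FXRα3 and 114 for FXRα4. These 4 comparisons share the GFP arrays. Arrays of all 4 isoforms lay above those of GFP for 870 genes (4.62%). For 4 genes the smallest of the 4 differences was at least as large as the 1.52 of Dusp4, with Dusp4 among the 4. The family was chosen by the FXRα3 and GFP values of Dusp4, so nothing is read from its span, these ranks or these counts.

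**Figure D1:**
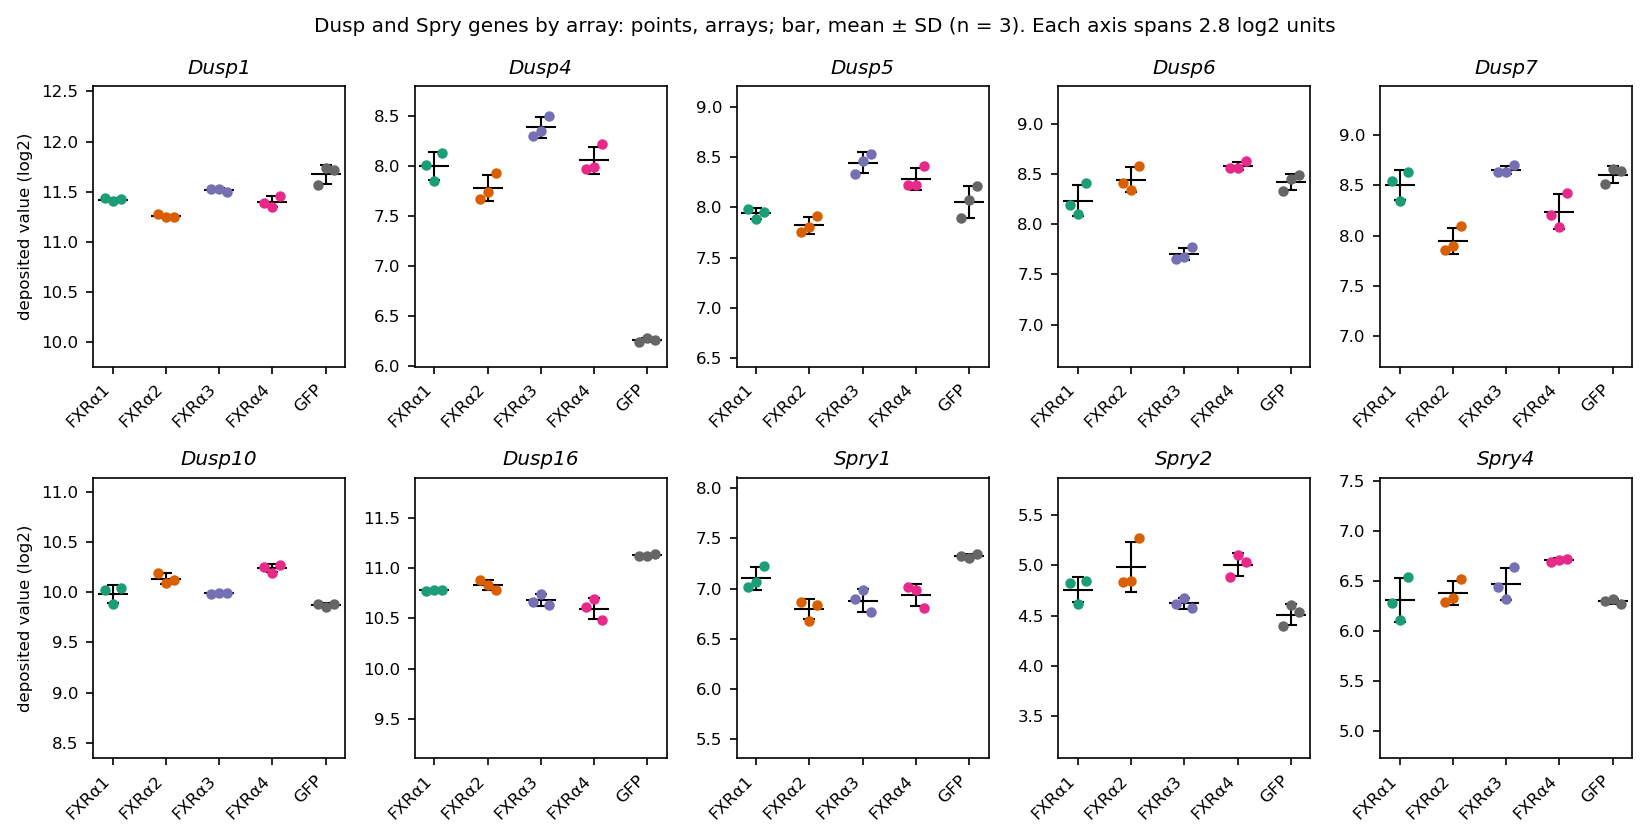
Deposited log2 value (vertical axis) of each of the 10 genes on each of the 15 arrays, by adenovirus (horizontal axis). Points are arrays and bars are means ± SD (n = 3). Dusp4 lies at 6.24 to 6.28 with GFP and at 7.67 or above with every isoform, and Dusp6 is lowest on the FXRα3 arrays.

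Among the isoforms Dusp4 was highest with FXRα3, and the FXRα3 arrays overlapped those of no other isoform. Between the isoforms that lack the insert, Dusp4 was higher with FXRα4 than with FXRα2 by 0.28 ± 0.09 (SE, adjusted p = 0.024 by limma, two-sided, over all genes). That call did not hold when FXRα2 replicate 1 (adjusted p = 0.128), FXRα2 replicate 2 (0.0829) or FXRα4 replicate 3 (0.161) was left out. FXRα2 minus FXRα1 was -0.22 ± 0.09 with overlapping arrays and an adjusted p of 0.0656. That difference became a call with quantile normalization (0.0317), centring on the median (0.00015) or a block for replicate number (0.0122). It also became one without the dimmest 9410 genes (0.0429), FXRα1 replicate 2 (0.0182) or FXRα2 replicate 3 (0.018). FXRα4 minus FXRα3 was -0.33 and FXRα3 minus FXRα1 was 0.39, both with no overlap and neither tested.

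Genes with a profile like that of Dusp4 were ranked by Pearson's r over the 15 arrays, among 1102 genes whose group means spanned at least 1 on the log2 scale. The arrays fall into 5 groups and the profile is dominated by the step from GFP to the isoforms, so r is a description only. Itga7, an integrin subunit that binds laminin, came first with r = 0.982. Its group means were 7.07 for FXRα1, 6.88 for FXRα2, 7.18 for FXRα3 and 7.02 for FXRα4, against 5.50 with GFP. Serpinb9d (r = 0.968), a serine protease inhibitor, and Nqo1 (r = 0.964), a quinone reductase, came next. They were followed by Micall2 (0.954), Loxl4 (0.944), a lysyl oxidase of the extracellular matrix, Plscr2 (0.929), Azin2 (0.920), an antizyme inhibitor, and Pilra (0.915). The smallest of their differences from GFP ran from 0.55 for Pilra with FXRα2 to 1.39 for Itga7 with FXRα2. None of the 8 had a difference from GFP with any isoform as large as that of Dusp4 with the same isoform. Dusp4 was chosen by such values, so nothing is read from that either.

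**Figure D2:**
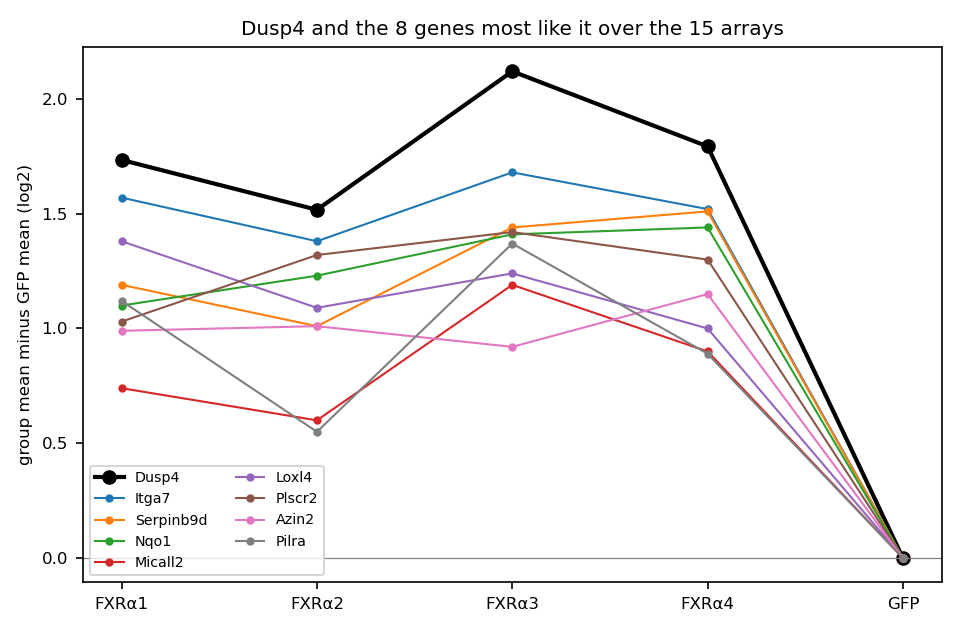
Group mean minus GFP mean (log2, vertical axis) by adenovirus (horizontal axis) for Dusp4, in black, and for the 8 genes with the highest r to it. Dusp4 runs above the other lines with each isoform, reaching 2.12 with FXRα3, and Nqo1, Serpinb9d and Azin2 are highest with FXRα4.

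Dusp1, Dusp16 and Spry1 were lower with all 4 isoforms than with GFP, without overlap of arrays. That pattern was found for 586 of all genes (3.11%). The promoter windows of these 3 genes are shown because they share this direction. Each window spans 250 bases before to 50 bases after the annotated start in RefSeq on GRCm38.p6, printed 5′ to 3′ on the strand of the gene. Capitals mark a match to a searched motif. The windows are chr17:26508423-26508722 on the minus strand for Dusp1, chr6:134792579-134792878 on the minus strand for Dusp16 and chr3:37639697-37639996 on the plus strand for Spry1.
Dusp1: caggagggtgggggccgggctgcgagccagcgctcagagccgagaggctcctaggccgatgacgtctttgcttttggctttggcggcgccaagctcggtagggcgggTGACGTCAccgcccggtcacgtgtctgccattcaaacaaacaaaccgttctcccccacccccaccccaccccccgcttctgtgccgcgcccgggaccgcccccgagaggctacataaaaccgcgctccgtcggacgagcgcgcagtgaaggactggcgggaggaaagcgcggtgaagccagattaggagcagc
Dusp16: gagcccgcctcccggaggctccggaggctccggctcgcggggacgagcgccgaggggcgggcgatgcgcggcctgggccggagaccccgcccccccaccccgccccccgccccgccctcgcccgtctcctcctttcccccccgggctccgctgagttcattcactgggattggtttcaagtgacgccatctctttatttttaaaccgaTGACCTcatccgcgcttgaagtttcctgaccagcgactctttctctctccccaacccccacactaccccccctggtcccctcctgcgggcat
Spry1: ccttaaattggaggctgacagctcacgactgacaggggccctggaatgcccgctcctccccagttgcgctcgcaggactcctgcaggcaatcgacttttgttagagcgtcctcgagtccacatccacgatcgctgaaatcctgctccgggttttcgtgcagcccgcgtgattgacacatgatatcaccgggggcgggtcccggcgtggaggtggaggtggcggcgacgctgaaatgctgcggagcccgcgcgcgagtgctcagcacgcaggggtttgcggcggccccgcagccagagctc
The motifs, searched on both strands, were the half-site AGGTCA, the FXR inverted repeat (AGGTCA, any base, then TGACCT), the cyclic AMP response element TGACGTCA, the AP-1 site TGANTCA and the ETS site CCGGAAG. The inverted repeat contains the half-site. The Dusp1 window holds TGACGTCA with its first base 143 bases upstream of the start. The Dusp16 window holds the half-site on the opposite strand, read as TGACCT, 42 bases upstream, and the Spry1 window holds none of the 5. Of the 8 members whose window was searched, Spry2 also has a half-site, at base 22 of the transcript, and none has the inverted repeat, the AP-1 site or the ETS site. No window of Dusp4 or Spry4 was searched. Among all 32851 windows 16.3% hold the half-site, 1.79% the cyclic AMP element, 7.81% the AP-1 site, 8.86% the ETS site and 0.00913% the inverted repeat. A match is a run of letters and not a measured site.

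Dusp1, the phosphatase induced by stress, growth factors and glucocorticoids, read 11.44, 11.40 and 11.42 with FXRα1, 11.27, 11.25 and 11.25 with FXRα2, 11.53, 11.53 and 11.50 with FXRα3 and 11.39, 11.35 and 11.46 with FXRα4, against 11.57, 11.73 and 11.72 with GFP. The FXRα2 arrays were the lowest of all. Dusp1 fell by 0.25 ± 0.04 with FXRα1 (adjusted p = 0.000138), by 0.42 ± 0.04 with FXRα2 (3.27e-08) and by 0.27 ± 0.04 with FXRα4 (1.41e-05), and FXRα3 minus GFP was -0.15. It was also lower with FXRα2 than with FXRα1, at -0.17 ± 0.04 (adjusted p = 0.00336, or 0.0712 after centring on the 75th percentile). For FXRα4 minus FXRα3 it was -0.12 ± 0.04 (adjusted p = 0.0321), a call lost when any 1 of FXRα3 replicate 1, 2 or 3 or FXRα4 replicate 1 or 2 was left out (adjusted p 0.0511 to 0.135). It was also lost with quantile normalization (-0.0745, adjusted p = 0.216), centring on the 75th percentile (0.0978) or no mean-variance trend (0.13). FXRα4 minus FXRα2 was 0.14 ± 0.04 (adjusted p = 0.0125), lost without FXRα4 replicate 3 (0.0841), after centring on the median (0.0674) or with no mean-variance trend (0.0782).

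Dusp16, a phosphatase of JNK and p38, read 10.78 on each FXRα1 array, 10.89, 10.83 and 10.79 with FXRα2, 10.66, 10.75 and 10.63 with FXRα3 and 10.62, 10.69 and 10.48 with FXRα4, against 11.12, 11.13 and 11.15 with GFP. Its GFP arrays ran from 11.124 to 11.146 and every isoform array lay below them. Dusp16 fell by 0.35 ± 0.05 with FXRα1 (adjusted p = 1.29e-05), by 0.30 ± 0.05 with FXRα2 (2.73e-05) and by 0.54 ± 0.05 with FXRα4 (6.26e-09), and FXRα3 minus GFP was -0.45. It was lower with FXRα4 than with FXRα2, at -0.24 ± 0.05 (adjusted p = 0.000639). Over the 15 arrays it ran against Dusp4 with r = -0.92, which like every r here reflects the 5 groups. Parp3 (r = 0.963), an ADP-ribosyltransferase, Gpam (0.950), which starts glycerolipid synthesis, and Tm4sf4 (0.949) had the profiles most like it among 4246 genes with a span of at least 0.5.

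Spry1, the first of the Sprouty genes, read 7.01, 7.06 and 7.23 with FXRα1, 6.86, 6.68 and 6.83 with FXRα2, 6.89, 6.99 and 6.76 with FXRα3 and 7.01, 6.98 and 6.81 with FXRα4, against 7.33, 7.30 and 7.35 with GFP. The FXRα1 arrays came nearest to GFP. Spry1 fell by 0.53 ± 0.09 with FXRα2 (adjusted p = 3.81e-05) and by 0.39 ± 0.09 with FXRα4 (0.00105). FXRα3 minus GFP was -0.45 and FXRα1 minus GFP was -0.22 ± 0.09 (adjusted p = 0.11), a difference that became a call under each of the other scalings (adjusted p 0.0101 to 0.0292). It was lower with FXRα2 than with FXRα1, at -0.31 ± 0.09 (adjusted p = 0.00873), lost without FXRα1 replicate 3 (0.0531) or FXRα2 replicate 2 (0.0595). Uhrf2 (r = 0.909), Rnf19a (0.908), both encoding ubiquitin ligases, and Nbeal1 (0.907) were most like it.

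**Figure D3:**
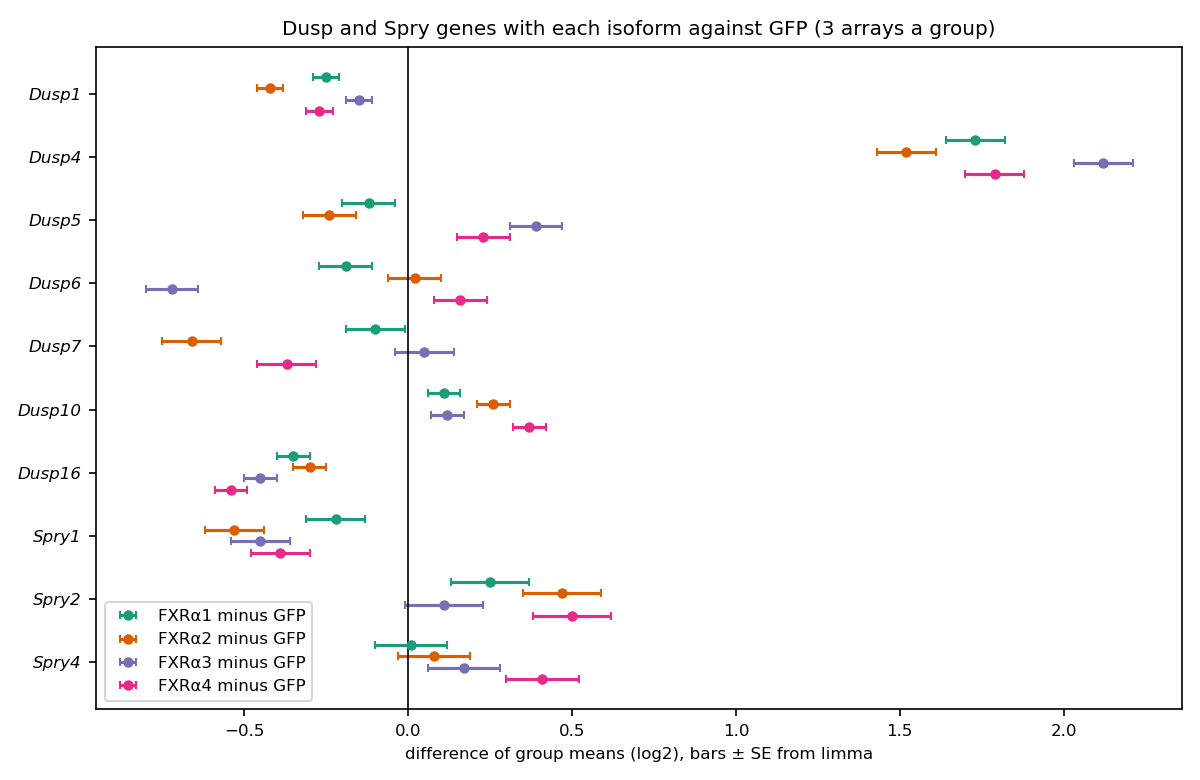
Difference of group means, isoform minus GFP (log2, horizontal axis), for each of the 10 genes (vertical axis), with 1 point per isoform and bars of ± SE from limma. Dusp4 lies between 1.52 and 2.12 with all isoforms, Dusp1, Dusp16 and Spry1 lie below 0 with all of them, and Dusp6 reaches -0.72 with FXRα3.

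Dusp6, the cytoplasmic ERK phosphatase whose transcript is a common readout of ERK activity, was set apart by FXRα3. It read 8.20, 8.10 and 8.41 with FXRα1, 8.41, 8.34 and 8.58 with FXRα2, 7.66, 7.68 and 7.77 with FXRα3 and 8.56, 8.56 and 8.63 with FXRα4, against 8.34, 8.45 and 8.49 with GFP. The FXRα3 arrays were lower than all other arrays. Relative to GFP, Dusp6 was -0.19 ± 0.08 with FXRα1 (adjusted p = 0.136). With FXRα2 it was 0.02 ± 0.08 (0.862) and with FXRα4 0.16 ± 0.08 (0.129). The FXRα1 difference became a call under each of the other scalings (adjusted p 0.000867 to 0.00691) or without FXRα1 replicate 3 (0.0196). The FXRα4 difference became one with quantile normalization (0.0229), centring on the 75th percentile (0.0257) or only the FXRα4 and GFP arrays fitted (0.0467). FXRα4 minus FXRα3 was 0.88 ± 0.08 (adjusted p = 8.98e-09) and FXRα3 minus FXRα1 was -0.53 ± 0.08 (9.07e-05), while FXRα3 minus GFP was -0.72. Among isoforms with the short N-terminus, FXRα2 minus FXRα1 was 0.21 ± 0.08 (adjusted p = 0.0425). It was 0.0931 after centring on the median (adjusted p = 0.191), and the call was also lost with no mean-variance trend (0.0676) or with only the FXRα2 and FXRα1 arrays fitted (0.12). It was lost too without FXRα1 replicate 1 or 2 or FXRα2 replicate 1 or 3 (adjusted p 0.0658 to 0.211), and also without FXRα3 replicate 2 (0.0518), FXRα4 replicate 1 (0.05) or GFP replicate 2 (0.0529). The difference of the differences, (FXRα4 minus FXRα3) less (FXRα2 minus FXRα1), was 0.67 ± 0.11 (adjusted p = 0.000223), and it was 0.583 to 0.739 with any 1 array left out. Gnaq (r = 0.968), a G protein subunit, Nsd3 (0.931) and Tsc22d3 (0.921), a glucocorticoid-induced gene, had the profiles most like it. The Tsc22d3 means were 6.74 for FXRα1, 6.99 for FXRα2, 6.55 for FXRα3 and 7.06 for FXRα4, against 6.90 with GFP.

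Dusp7, the close relative of Dusp6 with the same ERK preference, followed the insert with both N-termini. It read 8.54, 8.34 and 8.63 with FXRα1, 7.85, 7.90 and 8.10 with FXRα2, 8.63, 8.63 and 8.70 with FXRα3 and 8.20, 8.09 and 8.43 with FXRα4, against 8.51, 8.67 and 8.64 with GFP. The isoforms with the insert overlapped GFP and those without it lay below. Dusp7 fell by 0.66 ± 0.09 with FXRα2 (adjusted p = 1.97e-06) and by 0.37 ± 0.09 with FXRα4 (0.00163). FXRα2 minus FXRα1 was -0.56 ± 0.09 (adjusted p = 2.37e-05) and FXRα4 minus FXRα3 was -0.42 ± 0.09 (0.00064), and the first subtracted from the second gave 0.14 ± 0.12 (0.555). Dusp7 was higher with FXRα4 than with FXRα2 by 0.29 ± 0.09 (adjusted p = 0.016), lost without FXRα2 replicate 1 (0.0901), FXRα2 replicate 2 (0.0635) or FXRα4 replicate 3 (0.134). Tshz1 (r = 0.963), Edn1 (0.961), the gene of endothelin 1, and Septin8 (0.952) were most like it. The Edn1 differences from GFP were -0.26 for FXRα1, -1.01 for FXRα2, -0.02 for FXRα3 and -0.53 for FXRα4.

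**Figure D4:**
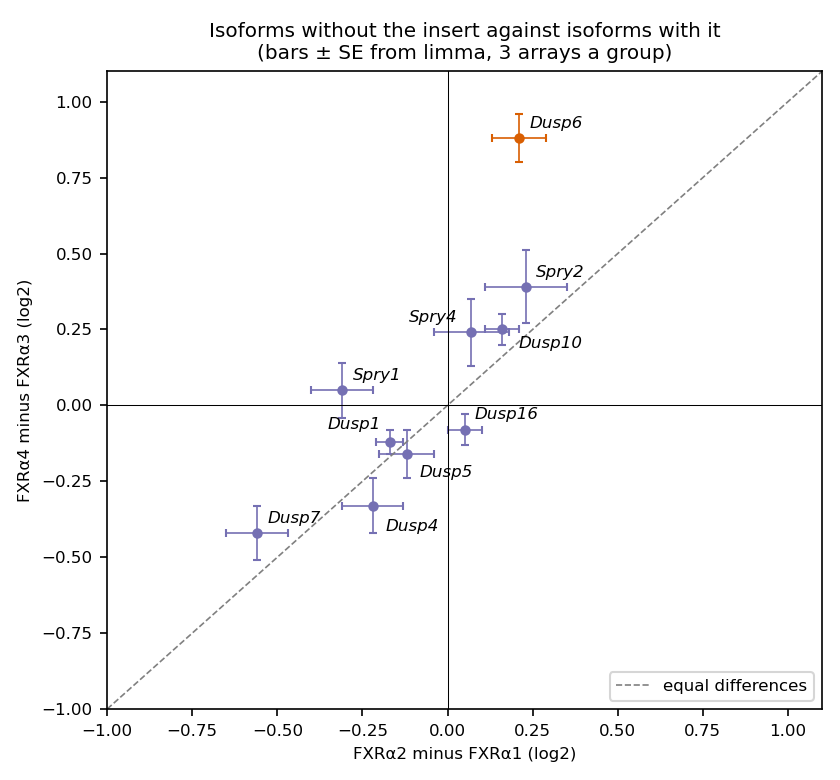
Difference between isoforms without and with the insert, for the short N-terminus (FXRα2 minus FXRα1, log2, horizontal axis) and the long one (FXRα4 minus FXRα3, log2, vertical axis), for the 10 genes, with bars of ± SE from limma. The dashed line marks equal differences. Dusp6 lies farthest from it, at 0.21 and 0.88, and Dusp7 lies at -0.56 and -0.42.

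Dusp5, a nuclear phosphatase selective for ERK, followed the N-terminus on the deposited scale, and after centring on the median it differed with the insert as well. It read 7.99, 7.88 and 7.96 with FXRα1, 7.75, 7.80 and 7.91 with FXRα2, 8.34, 8.47 and 8.54 with FXRα3 and 8.22, 8.23 and 8.41 with FXRα4, against 7.89, 8.07 and 8.21 with GFP. The arrays of FXRα3 and FXRα4 lay above those of all other groups. FXRα3 minus FXRα1 was 0.50 ± 0.08 (adjusted p = 0.000278), FXRα4 minus FXRα2 was 0.46 ± 0.08 (0.000151) and FXRα3 minus GFP was 0.39. FXRα2 minus FXRα1 was -0.12 ± 0.08 (adjusted p = 0.294) and FXRα4 minus FXRα3 was -0.16 ± 0.08 (0.153). With each array centred on its median these 2 were -0.237 (adjusted p = 0.00816) and -0.334 (0.000424), and FXRα1 minus GFP was -0.22 (0.0312). On the deposited scale, against GFP, Dusp5 fell by 0.24 ± 0.08 with FXRα2 (adjusted p = 0.0259), with overlapping arrays, and rose by 0.23 ± 0.08 with FXRα4 (0.0316). The first did not hold when FXRα2 replicate 1 or 2 or GFP replicate 2 or 3 was left out (adjusted p 0.0709 to 0.186). The second did not hold without FXRα4 replicate 3 or GFP replicate 1 or 2 (adjusted p 0.0642 to 0.212), and its difference was 0.016 with each array centred on its median. With no mean-variance trend its adjusted p was 0.0512. Nrm (r = 0.958), which encodes a nuclear envelope protein, Crtap (0.918) and Ppp1r18 (0.918) were most like Dusp5.

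Dusp10, a phosphatase of JNK and p38, was higher with the isoforms that lack the insert. It read 10.02, 9.88 and 10.04 with FXRα1, 10.19, 10.10 and 10.12 with FXRα2, 9.986, 9.989 and 9.996 with FXRα3 and 10.26, 10.19 and 10.27 with FXRα4, against 9.89, 9.85 and 9.88 with GFP. Dusp10 rose by 0.26 ± 0.05 with FXRα2 (adjusted p = 0.000109) and by 0.37 ± 0.05 with FXRα4 (1.5e-06). The FXRα2 and FXRα4 arrays lay above all arrays of the other groups. FXRα2 minus FXRα1 was 0.16 ± 0.05 (adjusted p = 0.0141) and FXRα4 minus FXRα3 was 0.25 ± 0.05 (0.000234). Without FXRα1 replicate 2 (adjusted p = 0.0947) or FXRα2 replicate 1 (0.0847), or with only the arrays of these groups fitted (0.0751), the call for FXRα2 minus FXRα1 was lost. With each array centred on its median, FXRα2 minus GFP was 0.0419, FXRα2 minus FXRα1 was 0.0388 and FXRα4 minus FXRα3 was 0.0776, with no call among them.

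Spry2 read 4.82, 4.62 and 4.84 with FXRα1, 4.84, 4.84 and 5.27 with FXRα2, 4.62, 4.68 and 4.57 with FXRα3 and 4.88, 5.11 and 5.03 with FXRα4, against 4.39, 4.60 and 4.53 with GFP. It rose by 0.47 ± 0.12 with FXRα2 (adjusted p = 0.00319) and by 0.50 ± 0.12 with FXRα4 (0.00206), with no overlap. FXRα4 minus FXRα3 was 0.39 ± 0.12 (adjusted p = 0.0168), lost without FXRα3 replicate 3 (0.0568) or FXRα4 replicate 2 (0.0723). These readings lie near the array medians, and Spry2 drops out when the dimmest 9410 genes are left out. With each array centred on its median, FXRα2 minus GFP was 0.253 (adjusted p = 0.0556) and FXRα4 minus FXRα3 was 0.214 (0.123). With quantile normalization FXRα4 minus FXRα3 was 0.255 (adjusted p = 0.0928).

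Spry4 read 6.28, 6.11 and 6.54 with FXRα1, 6.29, 6.33 and 6.52 with FXRα2, 6.44, 6.32 and 6.64 with FXRα3 and 6.69, 6.71 and 6.72 with FXRα4, against 6.30, 6.32 and 6.27 with GFP. The FXRα4 arrays were the highest. Spry4 rose by 0.41 ± 0.11 with FXRα4 (adjusted p = 0.00398). FXRα4 minus FXRα2 was 0.33 ± 0.11 (adjusted p = 0.0278), a call lost without FXRα2 replicate 1 or 2 or without any 1 of the FXRα4 arrays (adjusted p 0.0549 to 0.115). Differences from GFP were 0.01 ± 0.11 with FXRα1 and 0.08 ± 0.11 with FXRα2, and both were below 0 after quantile normalization or centring on the median.

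Counted over the members, the share with a call was read against the share of all genes called. All members but Spry2 are among the brighter 9410 genes, where calls were more common. With only those genes fitted, 25.7% were called with FXRα1, 59.1% with FXRα2 and 58.2% with FXRα4, each against GFP. The shares of all genes are therefore a low yardstick for these members. With FXRα1 against GFP, 0 rose and 2 fell of 9 tested members, where 8.42% of all genes rose and 4.0% fell. Those 2 were Dusp1 and Dusp16. With FXRα2 against GFP, 2 rose and 5 fell of 9, where 17.5% of all genes rose and 16.7% fell. With FXRα4 against GFP, 4 rose and 4 fell of 9, where 18.0% of all genes rose and 15.7% fell. With FXRα3 against GFP, 4 of 10 were higher and 4 lower without overlap, where 31.2% of all genes did not overlap, and nothing is read from it.

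Between isoforms, 2 rose and 3 fell of 10 with FXRα2 against FXRα1, where 14.1% of all genes rose and 17.1% fell. With FXRα4 against FXRα3, 3 rose and 2 fell of 9, where 15.8% of all genes rose and 13.8% fell. The block for replicate number, which may pair the arrays in this comparison, added Dusp5 (-0.161, adjusted p = 0.0495) and Spry4 (0.241, 0.0438). With FXRα3 against FXRα1, 1 rose (Dusp5) and 1 fell (Dusp6) of 9, where 2.21% of all genes rose and 4.65% fell. With FXRα4 against FXRα2, 5 rose and 1 fell of 10, where 11.7% of all genes rose and 12.0% fell, and the 6 calls became 2 without FXRα4 replicate 3 and 3 without FXRα2 replicate 1 or 2. The difference of the differences was above 0 with a call for 1 of 9, Dusp6, and below 0 with a call for 0 of 9. Among all genes the shares were 7.24% and 5.63%. The median size of difference over the 10 genes was 0.36 against 0.14 over all genes with FXRα2 against GFP, and 0.38 against 0.14 with FXRα4 against GFP. Those 10 include Dusp4, whose values against GFP were used to choose the family, so nothing is read from these medians.

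The 3 other genes of the classical MAP kinase phosphatases moved differently from each other. Dusp9, which acts in the cytoplasm on ERK and p38, read 7.09, 7.02 and 7.33 with FXRα1, 5.87, 5.75 and 5.90 with FXRα2, 7.58, 7.34 and 7.48 with FXRα3 and 6.73, 6.63 and 6.91 with FXRα4, against 5.89, 5.69 and 5.90 with GFP. The FXRα2 arrays overlapped GFP and those of the other isoforms lay above. Dusp9 rose by 1.32 ± 0.10 with FXRα1 (adjusted p = 5.28e-09) and by 0.93 ± 0.10 with FXRα4 (1.87e-07), and FXRα2 minus GFP was 0.01 ± 0.10 (0.94). FXRα2 minus FXRα1 was -1.31 ± 0.10 (adjusted p = 1.45e-09), FXRα4 minus FXRα3 was -0.71 ± 0.10 (1.02e-05), and these differed by 0.60 ± 0.15 (0.00775). Dusp2, a nuclear phosphatase of immune cells, rose by 0.44 ± 0.09 with FXRα2 (adjusted p = 0.000425) and by 0.31 ± 0.09 with FXRα4 (0.00883), though by 0.223 and 0.102 with no call after centring on the median. Dusp8, a phosphatase of JNK, fell by 0.37 ± 0.08 with FXRα1 (0.0033), by 0.31 ± 0.08 with FXRα2 (0.00462) and by 0.37 ± 0.08 with FXRα4 (0.000992).

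**Figure D5:**
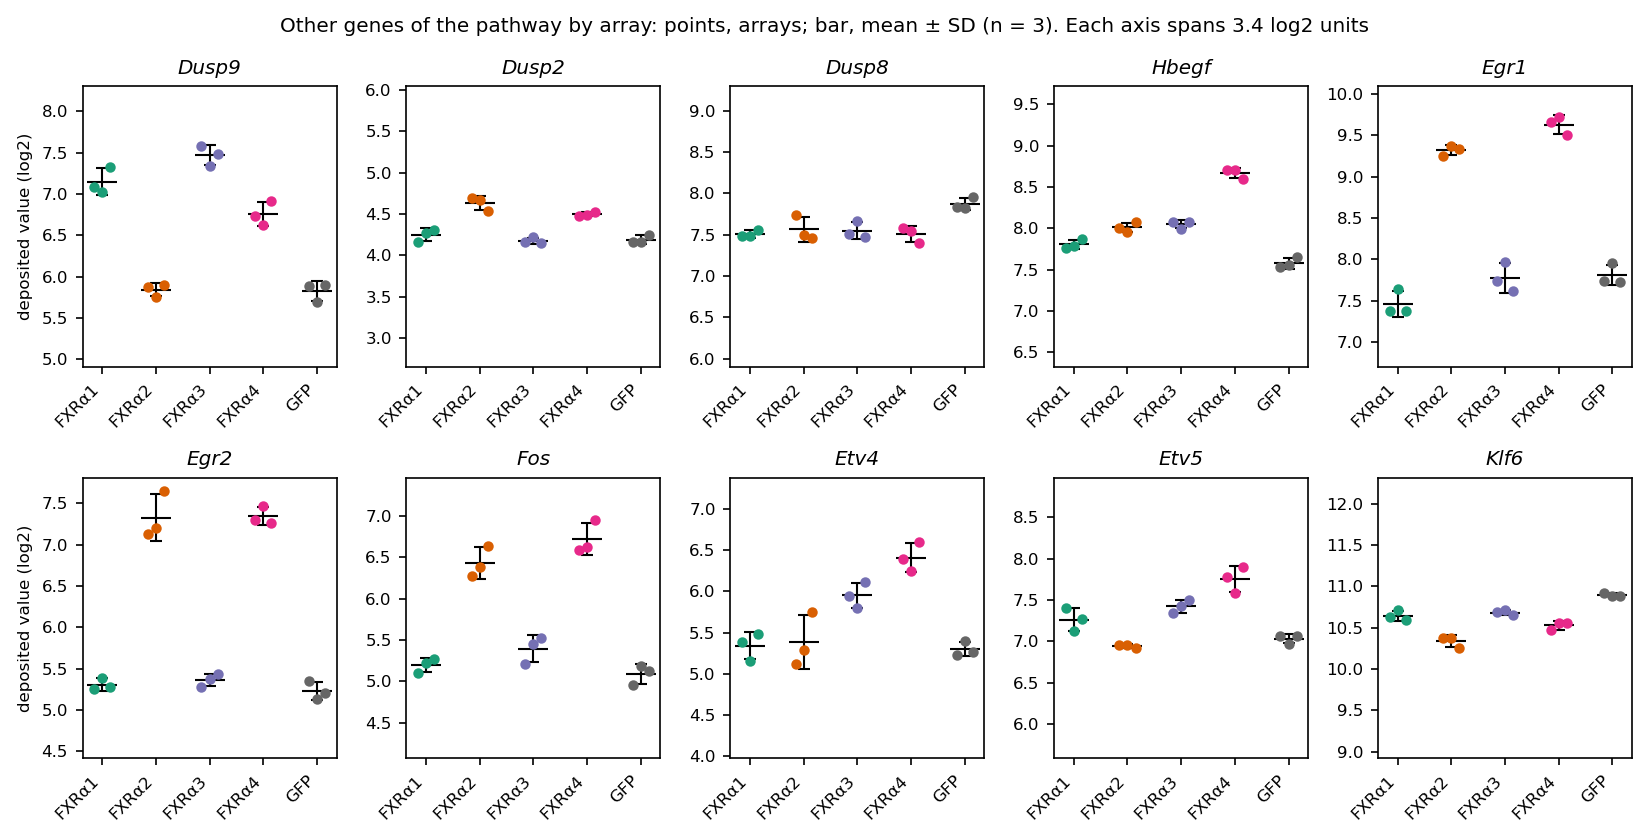
Deposited log2 value (vertical axis) of 10 other genes of the pathway on each of the 15 arrays, by adenovirus (horizontal axis). Points are arrays and bars are means ± SD (n = 3). Dusp9 is near its GFP level with FXRα2, while Egr1, Egr2 and Fos are high with FXRα2 and FXRα4.

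Of the 4 other Sprouty and Spred genes, whose products likewise damp Ras-ERK signalling, 1 rose and 1 fell with FXRα1, 2 rose and 1 fell with FXRα2 and 2 rose and 0 fell with FXRα4. Among all genes 8.42% rose and 4.0% fell with FXRα1, 17.5% rose and 16.7% fell with FXRα2, and 18.0% rose and 15.7% fell with FXRα4. Spred2 rose by 0.48 ± 0.07 with FXRα2 (adjusted p = 4.9e-06) and by 0.30 ± 0.07 with FXRα4 (0.00118), and Spred1 rose by 0.40 ± 0.10 with FXRα2 (0.00324). Spred3 read 4.56, 5.05 and 5.03 with FXRα2, against 5.28, 5.57 and 5.21 with GFP, and its fall of 0.47 ± 0.14 (adjusted p = 0.00941) was lost without FXRα2 replicate 1 (0.093) or GFP replicate 2 (0.072). After centring on the median, when 16.3% of all genes were called with FXRα1, 69.9% with FXRα2 and 62.6% with FXRα4, 0 rose and 1 fell with FXRα1, 2 rose and 2 fell with FXRα2, and 0 rose and 1 fell with FXRα4. Spred2 with FXRα4 was then 0.0871 (adjusted p = 0.186). Of the 15 atypical dual-specificity phosphatases, most of which do not act on MAP kinases, 1 rose and 0 fell with FXRα1, 4 rose and 3 fell with FXRα2 and 5 rose and 3 fell with FXRα4. Beside these counts stand the shares of all genes given above before centring. After centring, against the shares of all genes called after it, 0 rose and 3 fell with FXRα1, 4 rose and 7 fell with FXRα2, and 3 rose and 6 fell with FXRα4. With FXRα2 and FXRα4 these counts lie near those shares. Dusp13 rose by 1.78 ± 0.14 with FXRα2 (adjusted p = 5.39e-10) and by 2.13 ± 0.14 with FXRα4 (3.49e-11), and Dusp22 rose by 0.93 ± 0.05 with FXRα2 (6.47e-12).

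Genes that ERK activity is known to switch on were set beside the phosphatases. Of 22 measured, 1 rose and 6 fell with FXRα1 (median difference -0.02, against 0.004 over all genes), 5 rose and 4 fell with FXRα2 (-0.01, against -0.048) and 8 rose and 4 fell with FXRα4 (0.11, against -0.027). Among all genes 8.42% rose and 4.0% fell with FXRα1, 17.5% rose and 16.7% fell with FXRα2, and 18.0% rose and 15.7% fell with FXRα4. After centring on the median 1 rose and 7 fell with FXRα1, where 16.3% of all genes were called, 5 rose and 11 fell with FXRα2, where 69.9% were, and 8 rose and 10 fell with FXRα4, where 62.6% were. The immediate early transcription factor Egr1 averaged 9.32 with FXRα2 and 9.63 with FXRα4, against 7.81 with GFP, and rose by 1.52 ± 0.09 with FXRα2 (adjusted p = 9.9e-12) and by 1.83 ± 0.09 with FXRα4 (7.83e-13). Egr2 rose by 2.10 ± 0.12 with FXRα2 (3.24e-12) and by 2.12 ± 0.12 with FXRα4 (4.19e-12), and Fos rose by 1.34 ± 0.12 with FXRα2 (8.65e-09) and by 1.63 ± 0.12 with FXRα4 (4.65e-10). All arrays of Egr1, Egr2 and Fos with these 2 isoforms lay above those with FXRα1, FXRα3 and GFP. Their relatives in the list, named after their values were seen, differed. With FXRα2, FXRα4 and GFP in that order, Egr3 averaged 4.60, 4.65 and 4.79 and Jun 9.45, 9.59 and 9.78. In the same order Fosl2 averaged 8.31, 8.43 and 8.36, Fosb 4.90, 5.64 and 4.81, and Junb 9.46, 9.35 and 8.54. Of the 3 ETS factors in the list, Etv4 was higher with FXRα4 than with FXRα2 by 1.02 ± 0.14 (9.57e-06) and Etv5 by 0.81 ± 0.09 (3.82e-07), while the arrays of Etv1, named after its values were seen, overlapped (means 4.99 with FXRα4 and 4.94 with FXRα2). Klf6 fell by 0.26 ± 0.05 with FXRα1 (0.000325), by 0.56 ± 0.05 with FXRα2 (1.13e-09) and by 0.37 ± 0.05 with FXRα4 (7.55e-07).

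Upstream, 5 of 13 measured growth factor ligands rose and 1 fell with FXRα2, and 3 rose and 0 fell with FXRα4. For comparison, 17.5% of all genes rose and 16.7% fell with FXRα2, and 18.0% rose and 15.7% fell with FXRα4. The same shares stand beside the receptor counts before centring. Hbegf, a ligand of the EGF receptor, rose by 0.44 ± 0.06 with FXRα2 (adjusted p = 8.18e-06). With FXRα4 it rose to a mean of 8.67, against 7.57 with GFP (8.11e-12), and it was 0.66 ± 0.06 higher with FXRα4 than with FXRα2 (6.95e-08). Of 12 receptor tyrosine kinases, 4 rose and 3 fell with FXRα2 and 5 rose and 3 fell with FXRα4. Igf1r, the receptor of insulin-like growth factor, rose by 1.67 ± 0.14 with FXRα2 (2.97e-09) and by 2.76 ± 0.14 with FXRα4 (1.4e-12), and Erbb3 rose by 1.06 ± 0.05 with FXRα2 (5.85e-13) and by 0.90 ± 0.05 with FXRα4 (1.13e-11). After centring on the median 69.9% of all genes were called with FXRα2 and 62.6% with FXRα4. Of the ligands 1 then rose and 4 fell with FXRα2, and 1 rose and 5 fell with FXRα4. Of the receptors 4 then rose and 7 fell with FXRα2, and 4 rose and 5 fell with FXRα4.

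Within the Ras to ERK cascade 6 of 13 measured genes rose and 0 fell with FXRα1, 6 rose and 3 fell with FXRα2 and 5 rose and 2 fell with FXRα4. Among all genes 8.42% rose and 4.0% fell with FXRα1, 17.5% rose and 16.7% fell with FXRα2, and 18.0% rose and 15.7% fell with FXRα4. The same shares stand beside the p38 and JNK counts before centring. Map2k1 and Map2k2 encode the kinases that phosphorylate ERK. Map2k1 rose by 0.58 ± 0.06 with FXRα1 (adjusted p = 1.4e-07), by 1.03 ± 0.06 with FXRα2 (2.29e-12) and by 0.48 ± 0.06 with FXRα4 (4.48e-07), and Map2k2 by 0.21 ± 0.05 with FXRα1 (0.0043), 0.66 ± 0.05 with FXRα2 (2.99e-10) and 0.39 ± 0.05 with FXRα4 (1.16e-06). After centring on the median 3 rose and 2 fell with FXRα1 (16.3% of all genes called), 3 rose and 7 fell with FXRα2 (69.9%), and 4 rose and 5 fell with FXRα4 (62.6%). Of 15 measured genes of the p38 and JNK cascade, 3 rose and 0 fell with FXRα1, 7 rose and 3 fell with FXRα2 and 7 rose and 2 fell with FXRα4. Mapk8, which encodes JNK1, rose by 0.68 ± 0.07 with FXRα2 (8.44e-08) and by 0.69 ± 0.07 with FXRα4 (6.59e-08). After centring, against the shares of all genes called after it, 1 rose and 1 fell with FXRα1, 3 rose and 7 fell with FXRα2, and 4 rose and 6 fell with FXRα4.

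Of 12 other inhibitors of receptor and Ras signalling, 1 rose and 4 fell with FXRα1, 3 rose and 4 fell with FXRα2 and 4 rose and 2 fell with FXRα4. Among all genes 8.42% rose and 4.0% fell with FXRα1, 17.5% rose and 16.7% fell with FXRα2, and 18.0% rose and 15.7% fell with FXRα4. Dab2ip, a Ras GTPase activator, fell by 0.47 ± 0.07 with FXRα1 (adjusted p = 2.65e-05), by 0.92 ± 0.07 with FXRα2 (3.12e-10) and by 0.63 ± 0.07 with FXRα4 (1.06e-07). Errfi1, a feedback inhibitor of the EGF receptor, fell by 0.21 ± 0.04 with FXRα2 (0.000304) and by 0.42 ± 0.04 with FXRα4 (3.72e-08). Since Dusp1 is also induced by glucocorticoids and dexamethasone had been withdrawn from all groups, 14 glucocorticoid-induced genes were set beside it. Of these, 5 rose and 4 fell with FXRα1, 5 rose and 4 fell with FXRα2 and 4 rose and 4 fell with FXRα4. Beside these counts stand the same shares of all genes as for the inhibitors. Tat, tyrosine aminotransferase, fell by 0.65 ± 0.07 with FXRα1 (1.06e-06), by 1.28 ± 0.07 with FXRα2 (4.43e-12) and by 1.44 ± 0.07 with FXRα4 (1.06e-12), whereas Zfp36, an mRNA decay factor, rose by 1.50 ± 0.08 with FXRα2 (6.52e-13) and by 1.55 ± 0.08 with FXRα4 (5.54e-13). After centring on the median 16.3% of all genes were called with FXRα1, 69.9% with FXRα2 and 62.6% with FXRα4. Of the inhibitors 1 then rose and 4 fell with FXRα1, 2 rose and 8 fell with FXRα2, and 2 rose and 7 fell with FXRα4. Of the glucocorticoid-induced genes 0 then rose and 6 fell with FXRα1, 2 rose and 7 fell with FXRα2, and 1 rose and 7 fell with FXRα4.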

How the data were processed

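Total RNA was measured on 15 Affymetrix mouse arrays. The authors deposited log2 values per probe set, from 1.93 to 13.8. The log base is inferred from that range. Affymetrix Expression Console 1.1 and PLIER are named in the submitters' processing notes with no role. How background and normalization were handled is not given in the sources used here. Precision is limited by 3 arrays per group, and no label ties a replicate to an animal or culture of its own, so the p-values rest on a spread between arrays that may be technical.

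Of 35556 probe sets, 21218 had 1 symbol, 1881 several and 12457 no gene, and 21185 matched RefSeq by Entrez identifier. Per gene the probe set with the highest mean was kept (18820 genes, no filter on dim genes). limma 3.58.1 in R 4.3.3 fitted 5 group means with a mean-variance trend to all arrays. Tests were two-sided with Benjamini-Hochberg adjustment over all genes in each of 8 tested contrasts, and a call is an adjusted p under 0.05. The code was tested on simulated data. The members and lists were chosen with earlier results of these data known.

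The text may name every member, the other classical MAP kinase phosphatases, Sprouty and Spred genes, up to 4 genes per pathway list with the smallest adjusted p in a contrast, the first 3 genes of each marker list, and the genes most like each member by r, predicted genes passed over. Epcam is the third gene of the cholangiocyte list.

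Deviations from group means of same-numbered arrays correlated above 0.1 in every pair for FXRα4 and FXRα3 (0.15 to 0.36) and for FXRα4 and FXRα2 (0.13 to 0.43), so the numbers may pair these arrays. The link is loose, since FXRα4 replicate 1 correlated at 0.1298 with FXRα2 replicate 1 and at 0.1685 with FXRα2 replicate 2. Same-numbered arrays did so for FXRα3 and FXRα2 too, which were not compared, and not in every pair for the other 7 pairs of groups. For FXRα2 and FXRα1 they ran from -0.02 to 0.4. Between FXRα1 and the other isoforms, replicate 1 ran from -0.0388 to 0.0662, and replicates 2 and 3 from 0.1793 to 0.4013. The numbers may thus pair some arrays of FXRα1 too. Promoter windows come from RefSeq on GRCm38.p6, where those of 8 members, without Dusp4 and Spry4, were searched, and protein sequences were not used here. Tables were handled with Python 3.11.15 and pandas 2.3.3 and figures drawn with matplotlib 3.10.9.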

Additional observations from a re-analysis of the deposited data

Results flagged for a closer look

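The effect of lacking the insert differed between the N-termini for Dusp6, by a test of that difference. FXRα4 minus FXRα3 was 0.88 and FXRα2 minus FXRα1 was 0.21, a difference of 0.67 ± 0.11 (SE, limma adjusted p = 0.000223). Dusp9, a related phosphatase of ERK and p38, also passed this test. Its FXRα4 minus FXRα3 was -0.71 and its FXRα2 minus FXRα1 was -1.31, a difference of 0.60 ± 0.15 (adjusted p = 0.00775). The causes were not tested.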

How the results depend on the processing

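The members with a call kept their direction under every alternative run, and the other results that turned are given here. For FXRα1 against GFP the count of members called was 2, and it was 4 with quantile normalization, 6 with centring on the median and 4 with centring on the 75th percentile. For FXRα2 against FXRα1 it was 5, and 3 with only the groups of the contrast. For FXRα4 against FXRα3 it was 5, and 3 with quantile normalization. For the difference of the differences it was 1, and 2 without the dimmest 9410 genes or with the replicate block, which adds Spry1 (0.363, adjusted p = 0.0378). Leaving out each array gave counts of 2 to 3 for FXRα1, 6 to 7 for FXRα2 and 7 to 8 for FXRα4 against GFP, 3 to 5 for FXRα2 against FXRα1 (3 without FXRα2 replicate 1), 3 to 5 for FXRα4 against FXRα3 (3 without FXRα4 replicate 2), 2 to 2 for FXRα3 against FXRα1, 2 to 6 for FXRα4 against FXRα2 and 1 to 2 for the difference of the differences (2 without FXRα4 replicate 3). With quantile normalization Spry4 was -0.086 for FXRα1 minus GFP, -0.0865 for FXRα2 minus GFP and -0.000477 for FXRα2 minus FXRα1, Spry1 was -0.018 for FXRα4 minus FXRα3 and Spry2 -0.0102 for FXRα4 minus FXRα2. With centring on the median Spry4 was -0.093, -0.139 and -0.0457 in those 3 contrasts, Dusp6 was -0.199 for FXRα2 minus GFP (adjusted p = 0.00528) and -0.0535 for FXRα4 minus GFP, Dusp16 -0.0624 for FXRα2 minus FXRα1, Spry1 -0.119 for FXRα4 minus FXRα3, Dusp1 -0.0111 for the difference of the differences, and Tgfa -0.0225 for FXRα2 and -0.0563 for FXRα4 minus GFP. With centring on the 75th percentile Spry4 was -0.0394 for FXRα1 minus GFP. With any 1 array left out, values of uncalled members ran from -0.104 to 0.111 for Spry4 in FXRα1 minus GFP, -0.0471 to 0.0743 for Dusp6 in FXRα2 minus GFP, -0.000567 to 0.0781 for Dusp7 in FXRα3 minus GFP, -0.0289 to 0.186 for Spry4 in FXRα2 minus FXRα1, -0.00395 to 0.119 for Spry1 in FXRα4 minus FXRα3, -0.0412 to 0.041 for Dusp10 in FXRα3 minus FXRα1, -0.0492 to 0.169 for Spry2 in FXRα4 minus FXRα2 and -0.103 to 0.005 for Dusp5 in the difference of the differences.

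Of all genes, centring on the median called 13162 against 6448 for FXRα2 against GFP, 11787 against 6352 for FXRα4 against GFP and 9200 against 5561 for FXRα4 against FXRα3. For FXRα3 against FXRα1 the replicate block called 2117 against 1291, and 831 were called without FXRα3 replicate 1 and 780 without FXRα3 replicate 2. The replicate block also made Dusp4 a call for FXRα2 minus FXRα1 (-0.217, adjusted p = 0.0122). There same-numbered arrays correlated for replicates 2 and 3 (0.3825 and 0.4013) and not for replicate 1 (-0.0238). The block also made Dusp6 a call for FXRα1 and FXRα4 minus GFP (0.0279 and 0.0357), where not every same-numbered pair of arrays correlated above 0.1. For FXRα4 against FXRα2 it changed no call of a member. The causes were not tested. Adding 16 to the linear values gave Dusp4 minus GFP 1.34 to 1.91. With each array centred on its median, Dusp4 minus GFP was 1.3 with FXRα2 and 1.58 with FXRα4. Its FXRα4 minus FXRα3 was then -0.5. Spry2 is limited by signal near the array median.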
